A study of Mus musculus with 242 samples.

Results

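Genes for transport proteins that carry drugs, conjugates and bile constituents out of liver cells were followed across a mouse toxicology series. The 9 genes are Abcc1, Abcc2, Abcc3, Abcc4, Abcc5, Abcc6, Abcb1a, Abcb4 and Abcg2, taken by name as members of the Abc transporter families. Earlier results of these data were known when they were chosen. They were 9 of the 18193 genes measured, and each was read from 1 probe set, the one with the highest mean signal over all arrays. In this series liver RNA of female B6C3F1 mice, a hybrid of inbred strains, was measured on 242 arrays, 1 per mouse, after 13 weeks of exposure to one of 26 chemicals or the vehicle alone. The mice were 18 weeks old when livers were taken, and the right, caudate and median lobes were processed together. By its title, the study sought transcripts that could foretell liver tumours in long-term bioassays.

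Abc transporters hydrolyse ATP to move substrates across a membrane against a gradient. In hepatocytes, Abcc2, Abcg2, Abcb1a and Abcb4 sit in the canalicular membrane and load bile, while Abcc3, Abcc4 and Abcc6 sit in the membrane that faces the blood and export back into the circulation. Several of these genes are known targets of the stress-responsive factor NRF2, which binds antioxidant response elements, and of the xenobiotic receptors CAR and PXR. Because whole liver was measured, fewer cells of a type and less RNA per cell cannot be told apart.

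The 46 treated groups held 3 to 5 mice, and there were 14 control sets of the same kind of mouse. A set coded CCO3 was labelled distilled water, although its code is like those of the corn oil sets. No treated group was set against it. By gavage in corn oil, mice received coumarin at 200 mg/kg, benzene at 100 mg/kg, 1,2-dibromoethane at 62 mg/kg, iodoform at 93 mg/kg, trichlorofluoromethane at 3925 mg/kg or 2,3-benzofuran at 240 mg/kg. Corn oil was also the vehicle for 1,4-dichlorobenzene at 100, 300, 400, 500 and 600 mg/kg and 1,2,3-trichloropropane at 2, 6, 20, 40 and 60 mg/kg. Distilled water carried 2-chloromethylpyridine hydrochloride at 250 mg/kg and N-methylolacrylamide at 50 mg/kg. Feed held malathion at 14800 ppm, 4-nitroanthranilic acid at 10000 ppm, diazinon at 200 ppm, 2,2-bis(bromomethyl)-1,3-propanediol at 1250 ppm, 1-amino-2,4-dibromoanthraquinone at 20000 ppm or tris(2,3-dibromopropyl)phosphate at 1000 ppm. Other feeds held pentachloronitrobenzene at 8187 ppm, 1,5-naphthalenediamine at 2000 ppm or N-(1-naphthyl)ethylenediamine dihydrochloride at 2000 ppm. The titles of the malathion arrays give 16000 in place of 14800 ppm. Air carried methylene chloride at 100, 500, 2000, 3000 and 4000 ppm, naphthalene at 0.5, 3, 10, 20 and 30 ppm, and, at 25, 75, 300, 800 and 1200 ppm, propylene glycol mono-t-butyl ether. Gavage and inhalation ran 5 days a week and feeding 7 days a week. The labels do not tie a chemical to a control set, so each was set against the controls of the same vehicle, route and run. Where a run held several such sets, the one whose animal numbers follow those of the treated mice was taken. Further chambers held ethylene oxide at 100 ppm, tetrafluoroethylene at 1250 ppm, tetrafluororethane at 50000 ppm or vanadium pentoxide at 2 mg/m3.

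Run codes in the labels put 54 arrays in run A, 36 in run B, 18 in run C and 134 in run D. Where the RNA integrity number was given, run A had values of 4.7 to 7.8 and the other runs of 7.1 to 9.4. The median signal per array ran from 69.4 to 136.7 after every array had been brought to a trimmed mean of 500. Summed signals of 6 hepatocyte markers (Alb, Ttr, Apoa1, Tat, Cps1 and Hnf4a) were 190345 to 508040 per array, against 156 to 1381 for 5 bile duct markers. Signals below are linear intensities. Differences are treated minus control in log2 of the signal plus 17.3, with the SE of the fit, so changes of dim genes are understated. A gene was counted as changed, or called, at an adjusted p under 0.05 (limma, Benjamini-Hochberg over every gene measured) with a fold of at least 1.5. Nothing in the labels pairs mice across groups. The p-values rest on the spread between mice within groups, estimated jointly over all groups of a run. A group that varied more than the others was therefore judged by the common spread.

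The promoters are shown because Abcc4 and Abcc2 gave the largest rises of the genes with an entry, and because the factor NRF2 binds a known core motif. RefSeq promoter windows on GRCm38.p6, from 250 bases before to 50 after a start, were found for 6 of the 9 genes, Abcc2, Abcc4, Abcc5, Abcb1a, Abcb4 and Abcg2. The core of the antioxidant response element, TGACNNNGC on either strand, occurred in at least 1 window of 3 of these 6 genes, against 14.0% of all 27025 genes. By window it was in 4 of 9, against 12.4% of all 32851. The motif was in the windows of both listed Abcc4 starts, in that of Abcc2 and in that of Abcb1a, and these letters were not in the windows of Abcb4, Abcc5 and Abcg2. A match is a description and not a binding site. Both Abcc4 windows lie on the minus strand, at chr14:118706170-118706469, where the match is on the opposite strand and begins 25 bases upstream of the start, and at chr14:118676882-118677181, where it begins 23 bases upstream. The Abcc2 window lies on the plus strand at chr19:43782058-43782357, with the match 98 bases upstream. Capitals mark the match, and each run reads 5′ to 3′ along the gene.
Abcc4, start 1: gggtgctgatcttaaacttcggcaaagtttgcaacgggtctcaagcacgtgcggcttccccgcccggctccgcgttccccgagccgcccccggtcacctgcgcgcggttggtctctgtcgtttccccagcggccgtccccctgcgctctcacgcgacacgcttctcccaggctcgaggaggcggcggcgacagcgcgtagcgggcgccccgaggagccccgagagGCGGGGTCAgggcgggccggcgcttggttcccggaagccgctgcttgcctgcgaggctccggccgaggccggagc
Abcc4, start 2: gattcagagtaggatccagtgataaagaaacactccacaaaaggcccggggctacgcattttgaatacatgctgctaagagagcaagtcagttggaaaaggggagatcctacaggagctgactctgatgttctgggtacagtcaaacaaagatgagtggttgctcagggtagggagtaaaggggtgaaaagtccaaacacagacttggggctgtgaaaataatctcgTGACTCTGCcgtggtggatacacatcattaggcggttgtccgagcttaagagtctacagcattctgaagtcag
Abcc2: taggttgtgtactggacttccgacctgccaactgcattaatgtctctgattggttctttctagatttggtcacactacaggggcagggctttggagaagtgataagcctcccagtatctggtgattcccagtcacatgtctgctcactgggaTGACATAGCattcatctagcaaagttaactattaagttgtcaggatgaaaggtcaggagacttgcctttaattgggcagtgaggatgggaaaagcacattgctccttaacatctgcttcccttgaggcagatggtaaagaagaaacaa

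At the highest dose of each chemical, 23 of the 234 member tests were called, 20 higher and 3 lower, in 9 of the 26 groups. That is 9.83% of member tests, against 0.661% of all gene tests in those groups. Over all 46 treated groups, 36 of 414 member tests were called, 29 higher and 7 lower, or 8.7% against 0.751%. Many groups share a control set, so these tests are not independent. The genes were chosen with earlier results of these data known, so the shares are descriptions. At some dose 10 of the chemicals had a member called, and 16 had none. Abcc4 rose in 13 groups of 8 chemicals, Abcc3 in 8 groups of 5, Abcc2 in 4 groups of 3 and Abcg2 in 4 groups of 4. Abcc2 fell in 2 groups of 1 chemical, Abcc6 fell in 3 groups, and Abcc5 and Abcb4 each fell in 1. No group had a called change of Abcc1 or Abcb1a, and no member was called with any chemical of run B. The SE of Abcc4 was wider in run B than in the other runs, so a change of a given size was harder to call there.

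**Figure D1:**
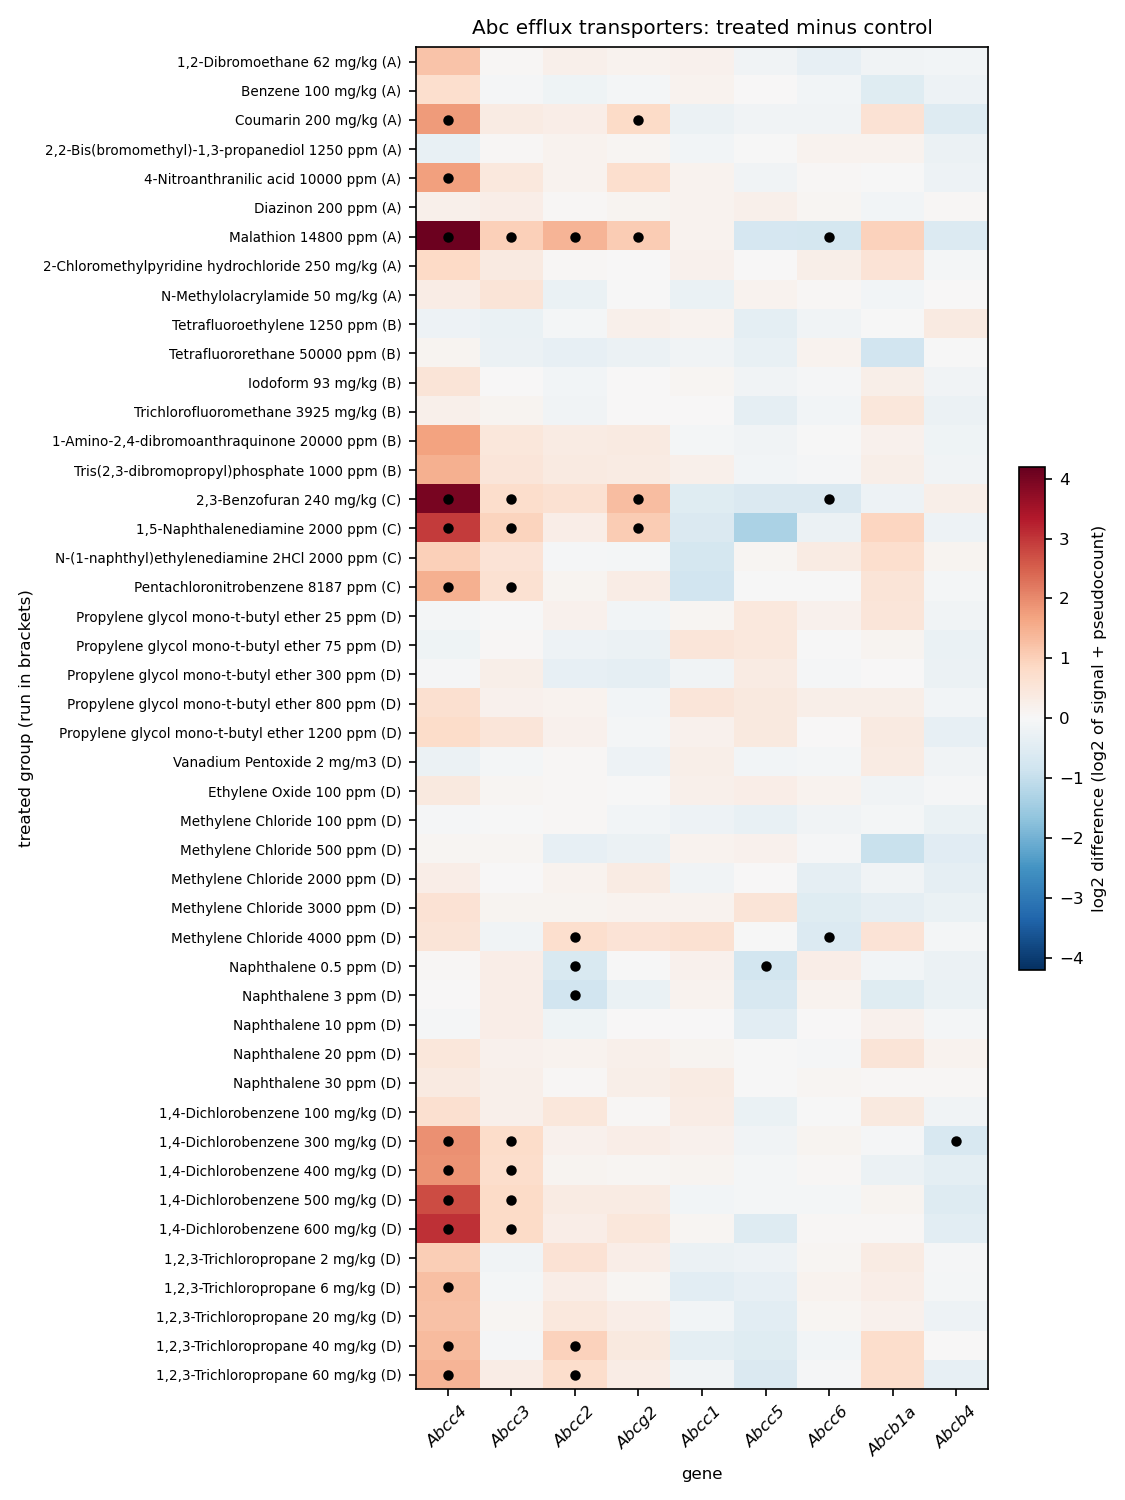
Log2 difference of treated from control (colour, scale at right) for the 9 genes (columns) in the 46 treated groups (rows, run in brackets), with a black dot where the difference was called. The left columns, Abcc4 and Abcc3, hold 21 of the 36 dots, and the darkest cells are Abcc4 with malathion (4.12) and 2,3-benzofuran (3.99).

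Abcc4 (Mrp4), on chromosome 14 at chr14:118482692-118707856, exports organic anions and, with glutathione, bile acids into blood, and it showed the widest range of all members. The array holds a single probe set for it. With malathion, an organophosphate insecticide, its signals were 3180, 4628, 2914, 4144 and 1889, against 175, 160, 159 and 192 in chow controls. All treated arrays lay far above all controls. The difference was 4.12 ± 0.31, a 17.3-fold rise (adjusted p = 5.9e-13). Malathion called 5 members, 4 higher and 1 lower, where 4.37% of all genes were called. RNA integrity was lower in the malathion arrays (4.7 to 6.5) than in their controls (6.7 to 7.2). Without the 2 arrays whose integrity number was under 5, the Abcc4 difference was 4.23. The arrays kept had values of 6.2 and 6.5, still below every control, and 1 had none given. This fit therefore does not remove the gap in RNA integrity.

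Benzofuran raised Abcc4 about as far as malathion did, in another run. Its signals were 3161, 4258 and 3596, against 217, 283 and 156 in corn oil controls. The groups were wholly apart, and the fitted difference was 3.99 ± 0.29, or 15.9-fold (adjusted p = 6.66e-06). Benzofuran called 4 members, 3 higher and 1 lower, against 3.28% of all genes. With 1,5-naphthalenediamine, an aromatic diamine, the arrays read 692, 1112 and 1508, and their chow controls 131, 147 and 98. Here too every treated array exceeded every control, by 2.92 ± 0.29 (7.57-fold, adjusted p = 0.000136), and 3 members rose against 3.4% of all genes called. The second of these treated arrays had been deposited on a scale of its own and was brought to the common trimmed mean, and without it the difference was 2.88.

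Smaller rises of Abcc4 followed with 3 more chemicals given at a single dose. Coumarin gave signals of 410, 448, 756 and 409, and its controls 89, 165, 142 and 126. These groups did not overlap (1.80 ± 0.32, 3.49-fold, adjusted p = 0.00178), and 2 members rose against 0.357% of all genes. RNA integrity was above that of the controls there, 7.2 to 7.8 against 6.6 to 7.1, and its part in the result was not tested. 4-Nitroanthranilic acid gave 709, 905, 447 and 446 against the chow set also used for malathion, and all 4 arrays exceeded it. The difference was 1.71 ± 0.32 (3.27-fold, adjusted p = 0.0107), the only member call of that group, against 0.11% of all genes. It missed the threshold without replicate 1 (adjusted p = 0.0511) or replicate 2 (adjusted p = 0.0806). Pentachloronitrobenzene gave 419, 373 and 346 against the chow set of 1,5-naphthalenediamine, again with no overlap. The difference was 1.49 ± 0.29 (2.80-fold, adjusted p = 0.0446), and 2 members rose against 0.445% of all genes. That call was lost on leaving out any 1 of the 6 arrays, with adjusted p from 0.0724 to 0.173. The ratio of the 3′ to the 5′ probe set of Gapdh, a measure of RNA wear, was below that of the controls in these arrays. With this ratio in the model the Abcc4 difference was 1.46 (adjusted p = 0.0773).

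**Figure D2:**
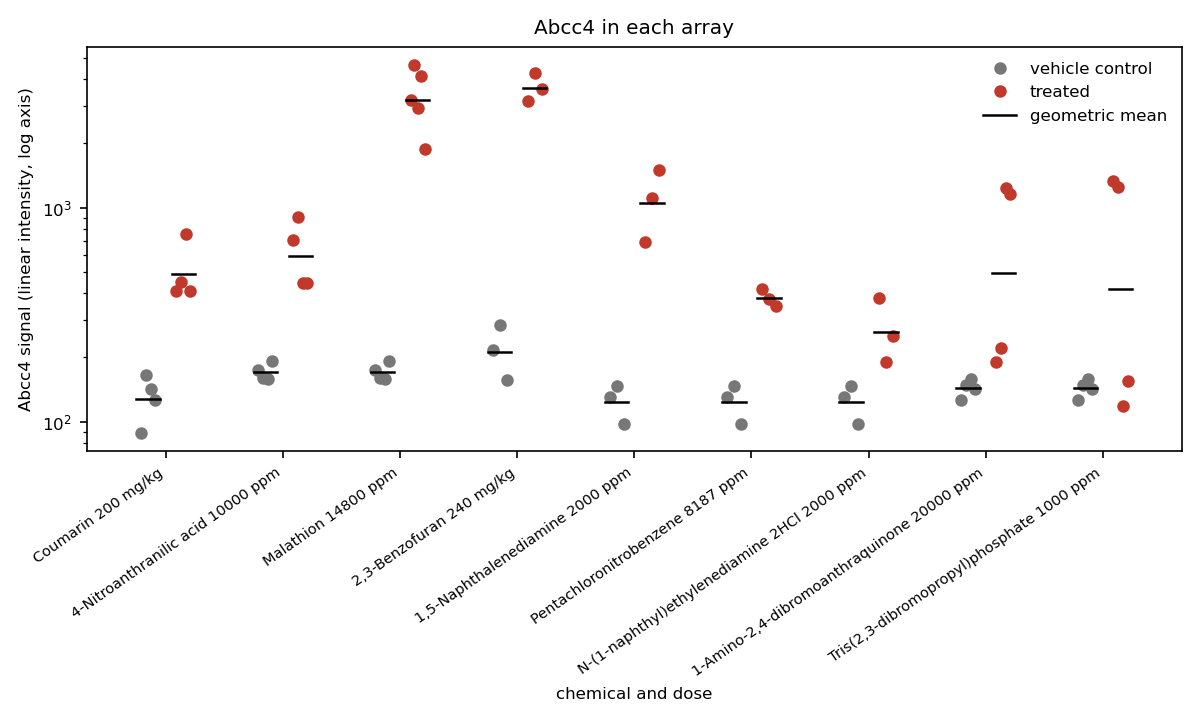
Abcc4 signal (linear intensity, log axis) in each treated array (red) and each vehicle control array (grey) for 9 chemicals, with bars at the geometric means. Malathion (1889 to 4628) and 2,3-benzofuran (3161 to 4258) stand highest, and the last 2 chemicals each show 2 arrays near the controls and 2 above 1000.

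In 2 brominated feed groups the Abcc4 arrays were far apart and no call was made. 1-Amino-2,4-dibromoanthraquinone gave 190, 221, 1237 and 1161, and tris(2,3-dibromopropyl)phosphate gave 1338, 1251, 119 and 155, against shared chow controls of 126, 149, 159 and 142. The differences were 1.69 ± 0.62 and 1.48 ± 0.62, each with an adjusted p of 1. Abcg2 read 1039, 1255, 2198 and 2341 with the anthraquinone and 2201, 1956, 1110 and 1338 with the phosphate, so the same arrays were high for both genes. The same 2 arrays of each group were also the highest for Abcc2, at 2603 and 2391 against 1602 and 1608 and at 2686 and 2197 against 1462 and 1991, with a narrower gap. For Abcc3 they were again the highest, at 11918, 8688, 12857 and 13906 and at 12913, 12239, 10858 and 11473, against controls of 7267 to 9408. Its differences of 0.48 ± 0.17 and 0.50 ± 0.17 were not called either. Among the remaining groups without a call, the largest Abcc4 difference outside trichloropropane was 1.21 with 1,2-dibromoethane (adjusted p = 0.35), whose arrays read 277, 215, 834 and 216.

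Abcc4 rose over the dose range of 1,4-dichlorobenzene, a mothball fumigant. Its 5 corn oil controls read 209, 219, 223, 242 and 155. At 100 mg/kg the arrays read 404, 318, 279 and 361, above every control, but the difference of 0.66 ± 0.29 was not called (adjusted p = 0.516). With both corn oil sets of the run pooled as controls it was 1.23 and called (adjusted p = 0.0115), as was Abcc2 at that dose, at 0.77 (adjusted p = 0.0144). At 300 mg/kg they read 756, 951, 839 and 827 and at 400 mg/kg 910, 694, 773 and 921, with differences of 1.93 ± 0.29 and 1.90 ± 0.29. Those 2 groups covered the same range of signals. Most arrays at 500 mg/kg (1607, 925, 1517 and 2149) and all at 600 mg/kg (1720, 1620, 2570 and 1675) were higher again. The array at 925 lay within the range at 300 mg/kg. The differences at 500 and 600 mg/kg were 2.74 ± 0.29 and 3.06 ± 0.29, a 6.68-fold and an 8.35-fold rise (adjusted p = 4.23e-12 and 1.07e-14). Fitted as a straight line over dose ranks, the change across the series was 3.07 ± 0.25 (adjusted p = 1.38e-18), and it was 2.25 over the dosed groups alone. The Gapdh ratio lay below that of the controls from 100 to 500 mg/kg and overlapped them at 600 mg/kg. With this ratio in the model the Abcc4 differences from 300 mg/kg on were 2.19, 2.19, 3.06 and 3.08, and all stayed called. Members called per dose were 3 at 300 mg/kg, against 2% of all genes, and 2 each at 400, 500 and 600 mg/kg, against 0.462%, 0.803% and 0.704%. The trend called 2 members, against 1.12%. Over the 5 dose trends of the series, 7 of 45 member tests were called (6 higher, 1 lower), or 15.6% against 1.11%.

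**Figure D3:**
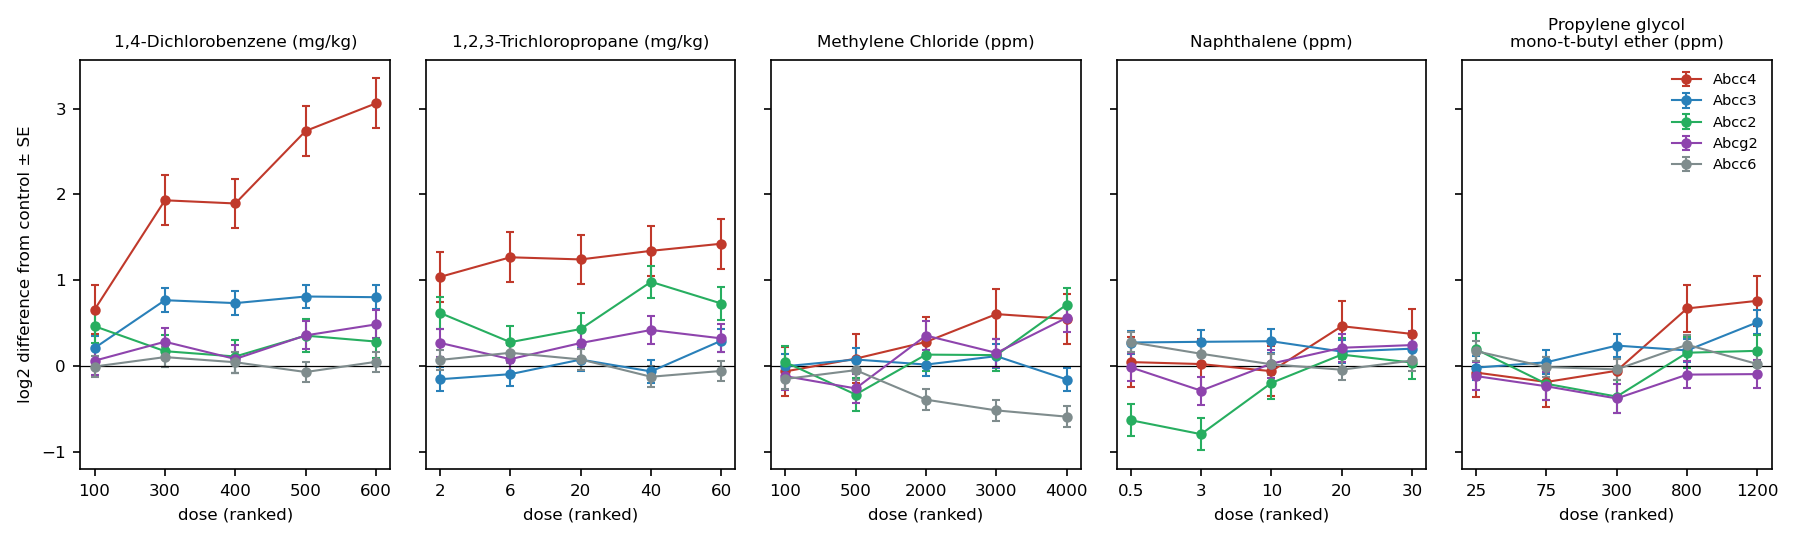
Log2 difference from control ± SE (vertical) at each of 5 ranked doses (horizontal) for 5 genes (colours) in 5 chemicals, with doses in mg/kg or ppm. With 1,4-dichlorobenzene Abcc4 climbs from 0.66 to 3.06 while Abcc3 stays between 0.73 and 0.81 from 300 mg/kg on, and with methylene chloride Abcc6 declines to −0.59.

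In the dose series of 1,2,3-trichloropropane, an industrial solvent, Abcc4 was called against controls that differed widely among themselves. The 5 corn oil controls read 263, 24, 201, 25 and 87. The arrays read 387, 207, 157 and 215 at 6 mg/kg, 213, 304, 265 and 199 at 40 mg/kg, and 338, 165, 265 and 293 at 60 mg/kg. All 3 groups overlapped the controls, and 3 of the 5 controls lay below every array of these groups. The differences were 1.27 ± 0.29, 1.34 ± 0.29 and 1.43 ± 0.29 (adjusted p = 0.0148, 0.00436 and 0.00215). At 2 and 20 mg/kg they were 1.04 ± 0.29 and 1.24 ± 0.29, not called (adjusted p = 0.155 and 0.0513). The difference at 20 mg/kg was called after quantile normalisation, with the lower pseudocount and with dim genes left out (adjusted p = 0.0249 to 0.0444). RNA integrity at 6 mg/kg, 8.5, was below that of the controls, 8.6 to 8.8, and its part in the result was not tested. Without control replicate 4 the 3 called differences were 0.95, 1.03 and 1.11, and none passed (adjusted p = 0.219, 0.0616 and 0.0567). Without control replicate 2 the call at 6 mg/kg was lost too, at 0.94 (adjusted p = 0.187), and it was also lost without treated replicate 1, at 1.03 (adjusted p = 0.207). When both corn oil sets of the run were pooled the differences were 0.70, 0.78 and 0.86, with no call. The trend was 1.15 ± 0.25 (adjusted p = 0.00356), but 0.34 over the dosed groups alone (adjusted p = 0.802). Members called were 1 at 6 mg/kg, against 0.242% of all genes, 2 at 40 mg/kg, against 1.34%, 2 at 60 mg/kg, against 0.401%, and 2 for the trend, against 0.577%.

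**Figure D4:**
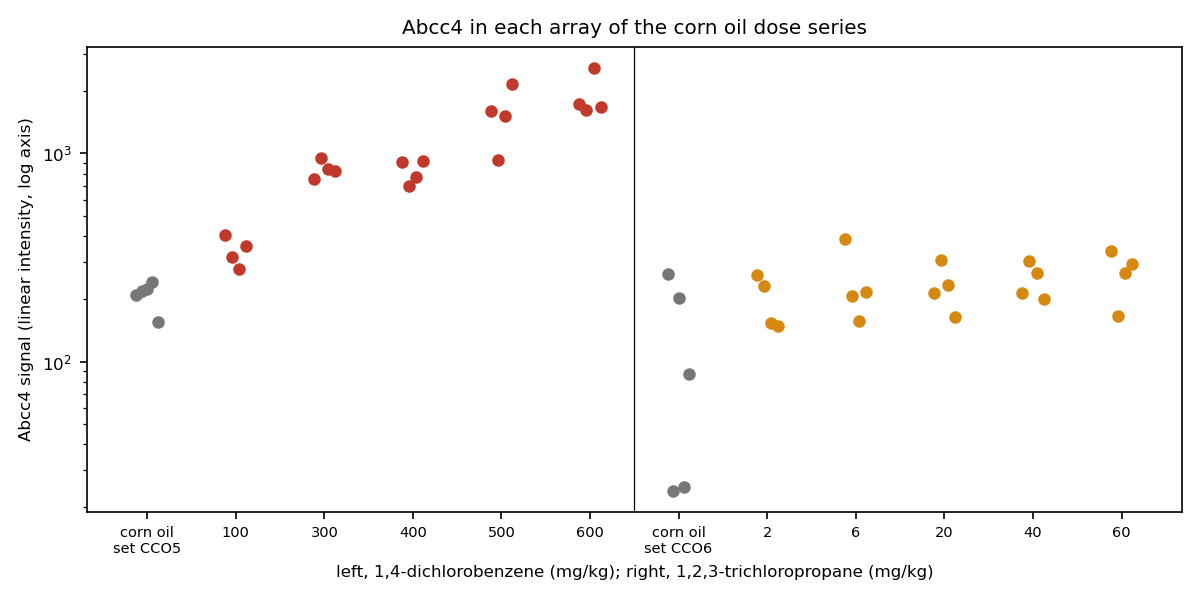
Abcc4 signal (linear intensity, log axis) in each array of the corn oil dose series, with 1,4-dichlorobenzene and its control set at left and 1,2,3-trichloropropane and its control set at right. The left series climbs from 155 to 242 in the controls to 1620 to 2570 at the top dose, while at right all treated arrays lie between 148 and 387 and the controls run from 24 to 263.

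In the other 3 dose series Abcc4 was not called at any dose. Its differences ran from −0.06 to 0.61 with methylene chloride, from −0.06 to 0.47 with naphthalene and from −0.18 to 0.76 with propylene glycol mono-t-butyl ether. The trends were 0.71 ± 0.25, 0.44 ± 0.25 and 0.88 ± 0.25 (adjusted p = 0.0636, 0.608 and 0.0791).

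Abcc3 (Mrp3), at chr11:94343295-94393017, exports glucuronide conjugates into blood. It rose in 8 groups, and all 8 were groups in which Abcc4 rose. Its changes were smaller than those of Abcc4 and lay in a narrow span, from 0.63 to 1.00. Malathion gave signals of 18588, 16212, 19102, 17775 and 14528, against 9651, 6883, 10063 and 9234. All treated arrays were above all controls, by 1.00 ± 0.14 (2.00-fold, adjusted p = 5.69e-06). With 1,5-naphthalenediamine the arrays read 13163, 15990 and 15926 against 7679, 7552 and 8170, and with 2,3-benzofuran 13845, 13164 and 12794 against 7505, 7770 and 8391. Neither pair of groups overlapped, and the differences were 0.94 ± 0.13 (adjusted p = 0.00132) and 0.75 ± 0.13 (adjusted p = 0.00579). Pentachloronitrobenzene (10351, 13241 and 12918) gave 0.63 ± 0.13, at an adjusted p of 0.049 that no fit with 1 array left out kept under the threshold (0.0561 to 0.156).

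With 1,4-dichlorobenzene Abcc3 was already at its plateau at the second dose. Its controls read 7967, 5822, 9254, 7369 and 6508, and the differences at 300, 400, 500 and 600 mg/kg were 0.77, 0.73, 0.81 and 0.80, each ± 0.14. Every array in those groups, from 9638 to 15536, lay above every control. At 100 mg/kg the difference was 0.21 ± 0.14. The trend was 0.83 ± 0.12 (adjusted p = 1.62e-07), but 0.49 over the dosed groups alone, under the fold limit. With propylene glycol mono-t-butyl ether the trend of 0.48 ± 0.12 had an adjusted p of 0.0289 and was likewise under the fold limit. Elsewhere the Abcc3 differences that were not called ran from −0.27 to 0.57.

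Abcc2 (Mrp2), at chr19:43782308-43838332, secretes bilirubin glucuronides and glutathione conjugates into bile. It rose in 4 groups and fell in 2, all at modest size. The largest difference that was not called was 0.65, with 2,3-benzofuran. There the arrays read 4668, 3781 and 4424 against 2269, 2724 and 3237, without overlap. Malathion gave 6542, 6920, 7216, 6641 and 5978, against 2181, 2540, 2892 and 2490. The groups were far apart, at 1.42 ± 0.13 (2.69-fold, adjusted p = 1.27e-10). Inhaled methylene chloride at 4000 ppm gave 3323, 3110, 3428 and 3740, against 1752, 2157, 1434, 2413 and 2815 in air controls. All 4 treated arrays exceeded the controls, by 0.72 ± 0.19 (1.64-fold, adjusted p = 0.0108). That call was lost without control replicate 3 (adjusted p = 0.0744) or treated replicate 4 (adjusted p = 0.0525). Methylene chloride at 4000 ppm called 2 members, Abcc2 higher and Abcc6 lower, against 2.92% of all genes. The stellate cell gene Reln (−0.79 ± 0.14) and the pancreatic gene Cela1 (−0.60 ± 0.17) fell in that group, and the summed endothelial markers were 6094 to 7070 against 8032 to 9052. Over the doses the endothelial gene Stab2 (−0.65 ± 0.08) and Reln (−0.95 ± 0.12) fell, and the part of these cells in the results was not tested. The trend of this chemical called 3, Abcc2 and Abcg2 higher and Abcc6 lower, against 3.5%, and the Abcc2 trend was 0.61 ± 0.16 (adjusted p = 0.00771).

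With trichloropropane Abcc2 was called higher at 40 and 60 mg/kg. The arrays read 3494, 2923, 3902 and 3085 at 40 mg/kg and 3123, 2622, 2554 and 2902 at 60 mg/kg, against 1840, 2218, 1486, 1619 and 1349. No treated array fell within the control range, and the differences were 0.98 ± 0.19 (adjusted p = 0.0013) and 0.73 ± 0.19 (adjusted p = 0.0429). Lower doses were not called. At 2 mg/kg the arrays read 2326, 2210, 3045 and 2859, and so reached into the range at 60 mg/kg. They read 2659, 1605, 1954 and 2067 at 6 mg/kg, and 2312, 2514, 1961 and 2326 at 20 mg/kg. The bile duct marker Sox9 fell at 60 mg/kg (−1.10 ± 0.28) and over the doses (−1.01 ± 0.24). The summed endothelial markers were 8686 to 9360 at 40 mg/kg and 7763 to 8769 at 60 mg/kg against 9470 to 10169, and their part in the result was not tested. Leaving out single arrays ended the call at 60 mg/kg in 8 of 9 fits and never at 40 mg/kg. Pooled corn oil controls gave 0.43 at 60 mg/kg (adjusted p = 0.394). The other corn oil set of the run read 2004, 2787, 2904, 2098 and 3178, so it lay across the signals at 60 mg/kg. The trend over ranks was 0.70 ± 0.16 (adjusted p = 0.00888), and 0.37 over the dosed groups alone (adjusted p = 0.531).

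Naphthalene vapour lowered Abcc2 at its 2 lowest doses. Signals were 1214, 972, 1511 and 1596 at 0.5 ppm and 1333, 1205, 1093 and 1027 at 3 ppm, against 2382, 2443, 2421, 1978 and 1207 in air controls. A single low control array overlapped both groups. The differences were −0.63 ± 0.19 (1.55-fold lower, adjusted p = 0.0333) and −0.79 ± 0.19 (1.73-fold lower, adjusted p = 0.0047). Leaving out single arrays ended the call at 0.5 ppm in 5 of 9 fits and at 3 ppm in none. At 10, 20 and 30 ppm the differences were −0.20, 0.13 and 0.04 with no call. The group at 0.5 ppm had 2 members lower, Abcc2 and Abcc5, against 2.49% of all genes, and the group at 3 ppm 1, against 4.14%. In both groups RNA integrity (9.2) was above that of the controls (8.5 to 8.9), and at 0.5 ppm 2 of the 6 hepatocyte markers, Alb and Ttr, were higher. The sum of the 6 hepatocyte markers was 326796 to 501634 at 0.5 ppm, 365735 to 401123 at 3 ppm and 243735 to 308099 in the controls, and its part in the result was not tested. At 0.5 ppm the endothelial gene Cdh5 (−0.65 ± 0.19) also fell and the pancreatic gene Cpb1 (0.94 ± 0.27) rose, and at 3 ppm Epcam of bile ducts (−1.50 ± 0.35) and the endothelial gene Lyve1 (−0.97 ± 0.26) fell.

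Abcg2 (Bcrp), at chr6:58584491-58692451, is a canalicular exporter of sulfate conjugates, porphyrins and many drugs. It rose in 4 groups, each of which also had Abcc4 higher. Benzofuran gave 3113, 3267 and 3337 against 1395, 1169 and 1368, and 1,5-naphthalenediamine gave 3109, 2840 and 3162 against 1519, 1569 and 1275. Both sets of arrays lay above all their controls, at 1.30 ± 0.12 (2.46-fold, adjusted p = 4.5e-05) and 1.06 ± 0.12 (2.08-fold, adjusted p = 4e-04). Malathion gave 2268, 2473, 2166, 2667 and 1850 against 1189, 1054, 1063 and 1220. There was no overlap, and the rise of 1.06 ± 0.17 (2.08-fold, adjusted p = 2.31e-05) was about as large. Coumarin gave 2826, 2235, 1710 and 2093 against 1324, 1035, 1149 and 1460. Those groups were apart as well, at 0.82 ± 0.17 (1.76-fold, adjusted p = 0.0136), but the call was lost without control replicate 2 or 3 or treated replicate 1 (adjusted p = 0.0718 to 0.0957). The largest Abcg2 difference that was not called was 0.69, with 4-nitroanthranilic acid.

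With methylene chloride Abcg2 rose over the dose ranks by 0.61 ± 0.14 (adjusted p = 0.00156) although no single dose was called. At 4000 ppm the arrays read 2772, 2378, 2638 and 2442, and the difference was 0.56 ± 0.15, under the fold limit. At 100, 500, 2000 and 3000 ppm the differences were −0.12, −0.26, 0.36 and 0.15. With 1,4-dichlorobenzene the trend of 0.44 ± 0.14 was not called (adjusted p = 0.0722).

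Abcc6 (Mrp6), at chr7:45974110-46030491, is a hepatocyte transporter of the blood-facing membrane through which ATP leaves the cell, and its loss causes ectopic mineralisation. It fell in 3 groups and rose in none. Malathion gave 1773, 1622, 1531, 1224 and 1908 against 2867, 2637, 2713 and 3017, 2,3-benzofuran 2119, 1518 and 1783 against 2363, 2897 and 2988, and methylene chloride at 4000 ppm 1670, 1988, 1892 and 1784 against 2876, 2758, 3283, 2314 and 2659. In all 3 every treated array was below every control. The differences were −0.73 ± 0.21, −0.61 ± 0.13 and −0.59 ± 0.12 (adjusted p = 0.0266, 0.0202 and 0.000383). They were close to the fold limit, and leaving out single arrays ended the call in 5 of 9, 4 of 6 and 4 of 9 fits. For malathion the arrays whose omission ended it were control replicates 1, 2 and 4 and treated replicates 2 and 4 (−0.67 to −0.74, adjusted p = 0.0562 to 0.0938). It was also lost without the 2 malathion arrays of low RNA integrity (−0.75, adjusted p = 0.058) and with the Gapdh ratio in the model (−0.71, adjusted p = 0.0543). For 2,3-benzofuran they were control replicates 2 and 3 and treated replicates 2 and 3 (−0.49 to −0.60, adjusted p = 0.0602 to 0.0819). For methylene chloride they were control replicates 1 and 3 and treated replicates 1 and 4, where the size fell under the limit (−0.53 to −0.58) and the adjusted p did not exceed 0.00476. Over the methylene chloride doses the Abcc6 differences were −0.15, −0.05, −0.39, −0.52 and −0.59, and the trend was −0.63 ± 0.10 (adjusted p = 2.87e-06). On a linear dose scale it was −0.58, under the fold limit.

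Abcc5 (Mrp5), at chr16:20331303-20426428, exports cyclic nucleotides and related anions. Its only call was a fall with naphthalene at 0.5 ppm, where the arrays read 360, 452, 165 and 381 against 585, 519, 672, 516 and 495. All 4 lay below the controls, by −0.76 ± 0.24 (1.70-fold lower, adjusted p = 0.038). Without the array at 165 the difference was −0.47 (adjusted p = 0.298), and leaving out control replicate 1, 2 or 3 ended the call too (adjusted p = 0.0534 to 0.101). The array holds 10 probe sets for this gene, and the second brightest gave −0.19 (adjusted p = 0.855). At 3 ppm the brightest gave −0.66, not called, and the second brightest −1.47. Without control replicate 5 the difference of the brightest at 3 ppm was −0.70 and called (adjusted p = 0.0408). With 1,5-naphthalenediamine Abcc5 read 27, 213 and 86 against 262, 179 and 280, a difference of −1.32 that was not called and became −1.91 (adjusted p = 0.0287) without replicate 2. Malathion gave 247, 39, 352, 378 and 536 against 289 to 449, and no call. Without treated replicate 5 the difference was −0.90 and called (adjusted p = 0.0473), while the second brightest probe set differed by 0.86 in mean.

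Abcb4 (Mdr2), at chr5:8893614-8959226, moves phosphatidylcholine into bile. Its only call was a fall with 1,4-dichlorobenzene at 300 mg/kg, from 8742, 8319, 9957, 7050 and 7048 in controls to 6214, 5121, 4801 and 4273. The groups did not overlap, and the difference was −0.69 ± 0.18 (1.61-fold lower, adjusted p = 0.0149). It was lost without control replicate 3 or treated replicate 3 or 4 (adjusted p = 0.0623 to 0.103). At the other doses the differences were −0.15, −0.42, −0.54 and −0.45, and the trend of −0.45 ± 0.15 was not called (adjusted p = 0.106). Abcb4 was lower than the controls in 38 of the 46 groups by sign, with a median of −0.18.

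Abcb1a (P-glycoprotein), at chr5:8567091-8748575, pumps many lipophilic drugs, and Abcc1 (Mrp1), at chr16:14361453-14474878, exports glutathione conjugates. Neither was called in any of 46 groups. The lowest adjusted p of Abcb1a was 0.0924. Its differences ran from −0.93 with methylene chloride at 500 ppm to 0.96 with malathion, where the arrays read 497, 626, 375, 524 and 720 against 169, 277, 319 and 398. Those arrays overlapped in 1 pair only. For Abcc1 the differences ran from −0.82 to 0.65, with a lowest adjusted p of 0.116. Its probe set had a mean signal of 115.8, near the median of an array, so small changes could not be resolved, and control arrays alone ran from 18 to 393.

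The 2 naphthyl amines were the one pair of related compounds compared at a matched dose, 2000 ppm in feed in run C. Both hold a naphthalene ring, with 2 amino groups on it in 1,5-naphthalenediamine and a single nitrogen-bearing side chain in N-(1-naphthyl)ethylenediamine dihydrochloride. Abcc4 read 692, 1112 and 1508 with the diamine and 378, 191 and 253 with the other. The 2 groups did not overlap, and the diamine was higher by 1.93 ± 0.29 (3.80-fold, adjusted p = 0.00571). Abcg2 read 3109, 2840 and 3162 against 1480, 1396 and 1241, also apart, and was higher by 1.14 ± 0.12 (adjusted p = 0.000518). Abcc6 read 1883, 1794 and 1893 against 2808, 2758 and 2870, lower by −0.59 ± 0.13 (adjusted p = 0.046), a call that was lost on leaving out any 1 of the 6 arrays. So 3 members differed, against 0.923% of all genes.

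For the other members the difference between the amines was not called. It was 0.37 for Abcc3 (95% interval 0.10 to 0.64), 0.33 for Abcc2 (−0.06 to 0.71) and −1.40 for Abcc5 (−2.38 to −0.43). Abcb1a gave 0.19 (−0.42 to 0.80), Abcc1 0.13 (−0.57 to 0.82) and Abcb4 −0.34 (−0.60 to −0.08). Against its own controls N-(1-naphthyl)ethylenediamine dihydrochloride gave 0.99 ± 0.29 for Abcc4 (adjusted p = 0.114, and 0.0484 with dim genes left out) and 0.57 ± 0.13 for Abcc3 (adjusted p = 0.0565). RNA of those arrays was of lower integrity, 7.7 to 8.1 against 8.8 to 8.9 with the diamine. With the Gapdh ratio in the model the differences were 1.85 for Abcc4, 0.97 for Abcg2 and −0.44 for Abcc6, and none was called (adjusted p = 0.184, 0.0599 and 0.468).

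Untreated levels of these genes varied between control sets, by vehicle and run together. The mean log2 level of the 14 sets spanned 0.68 for Abcc1, 0.75 for Abcc6, 0.93 for Abcc3 and 1.17 for Abcc4. It spanned 1.29 for Abcc2, 1.30 for Abcg2, 1.38 for Abcc5, 1.54 for Abcb4 and 1.90 for Abcb1a. The median SD within a set was 0.18 to 0.42. Between control sets of 1 run labelled with the same vehicle, limma called 0 of 45 member tests in 5 comparisons, with 3 at an unadjusted p under 0.05. The Abcc4 difference between the corn oil sets used for 1,2,3-trichloropropane and for 1,4-dichlorobenzene was −1.14 ± 0.27 (adjusted p = 0.181), nearly as large as the differences seen with trichloropropane itself, and that of Abcc2 was −0.60 ± 0.18 (adjusted p = 0.23).

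Genes of the pathways that are known to govern these transporters were followed from lists. Of 19 measured NRF2 targets, such as the glutathione transferase Gstm3 and the aldehyde oxidase Aox1, 16 rose with malathion, 15 with 2,3-benzofuran and 13 with 1,5-naphthalenediamine, and none fell. Their median differences were 1.76, 1.43 and 1.23, against medians of −0.03, −0.12 and −0.12 over all genes. With 1,4-dichlorobenzene 12, 9, 12 and 12 of 19 rose at 300, 400, 500 and 600 mg/kg, with coumarin 8 and with 1,2,3-trichloropropane at 60 mg/kg 8. At least 1 NRF2 target rose in 22 groups, and Abcc4 rose in 12 of those. The exception was trichloropropane at 6 mg/kg, where Abcc4 was called and no NRF2 target was. In groups without an Abcc4 call at most 4 NRF2 targets rose.

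Over the 46 groups the Abcc4 difference tracked the median of the NRF2 targets, with a Pearson r of 0.90 (Spearman 0.75), and r was 0.95 over the 26 highest-dose groups. For Abcc3 r was 0.83, for Abcg2 0.79 and for Abcc2 0.51. For Abcc6 it was −0.48. These are descriptions, since gene and list come from the same arrays and groups share control sets. Members and lists were also chosen with earlier results of these data known. The same measure against the median of 17 CAR and PXR targets was 0.48 for Abcc6, 0.47 for Abcb1a, 0.37 for Abcc3 and 0.17 for Abcc4. Over the 26 highest-dose groups it was 0.36, 0.41, 0.53 and 0.11. Of those 17 targets, 4 rose with malathion, led by the cytochrome Cyp2c55 (5.61 ± 0.38), and 5 with 1,4-dichlorobenzene at 500 mg/kg. At 1200 ppm of propylene glycol mono-t-butyl ether 4 rose, Cyp2c55 by 2.90 ± 0.31, while no member was called. With 2,3-benzofuran no CAR or PXR target rose and 2 fell, Cyp3a16 and Sult1d1, while Abcc4 rose 15.9-fold. With 1,5-naphthalenediamine, where Abcc4 also rose, Cyp2b10 (1.56) and Cyp2c55 (1.52) were called higher. Cyp2b10 was called higher with malathion too, and with 1,4-dichlorobenzene from 300 mg/kg on. Other targets of the list fell with methylene chloride, among them Cyp3a16 from 500 ppm on and Cyp2b13 from 2000 ppm on. The part of CAR and PXR in the Abcc4 rises was not tested.

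**Figure D5:**
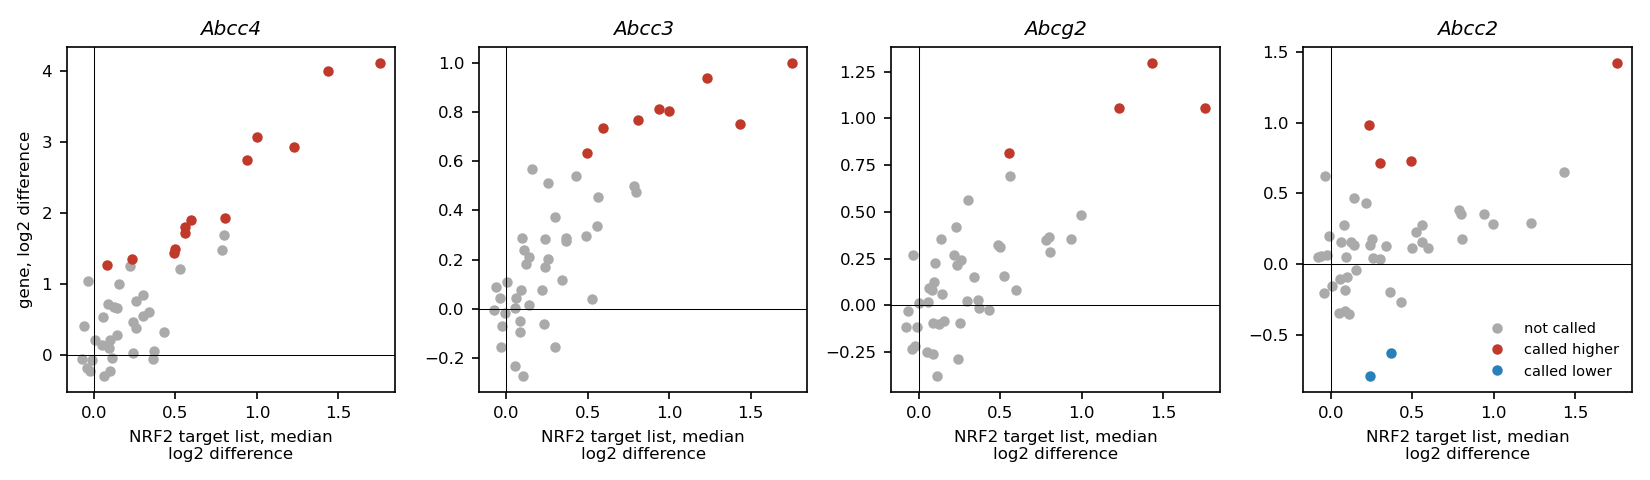
Log2 difference of Abcc4, Abcc3, Abcg2 and Abcc2 (vertical) against the median log2 difference of 19 NRF2 targets (horizontal), 1 point per treated group (46), with calls in red (higher) and blue (lower). Abcc4 climbs along the list to 4.12, whereas Abcc2 has both called falls at list medians above 0.

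Among genes called somewhere in the series, those most like Abcc4 over the 46 groups were the glutathione transferase Gstm4 (r = 0.92), the UDP-glucose dehydrogenase Ugdh (0.90), Entpd5 (0.88), 9130409I23Rik (0.88) and Aox1 (0.86). For Abcc3 they were Creg1 (0.88), Gstm4 (0.85), Gstt3, Hfe and Blvrb (0.82 each), and for Abcc2 Akr1c13 (0.81), Ugt2b34 (0.79), Set, Cyp3a13 and Commd3. Among the members themselves the closest pairs were Abcc4 with Abcg2 (0.81) and Abcc3 with Abcc4 (0.75), while Abcc2 and Abcc3 were only loosely alike (0.24). Abcc6 ran against Abcg2 (−0.59) and Abcc2 (−0.51).

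Of 32 other Abc genes measured, 2 rose and 3 fell with 2,3-benzofuran, which is 15.6% of them against 3.28% of all genes. With malathion 1 rose and 1 fell, or 6.25% against 4.37%. At most 3 were called in any other group, with methylene chloride at 3000 ppm (9.38% against 3.05%). Such a call was made in 9 of the 46 groups. Among the rest of these the share was 6.25% with naphthalene at 3 ppm, against 4.14% of all genes. Elsewhere it was 3.12%, a single gene, against 0.11% to 3.4% of all genes. Abcc12 rose with malathion (1.56 ± 0.44), 4-nitroanthranilic acid (2.09 ± 0.45) and 2,3-benzofuran (3.13 ± 0.66), and Abcc9, a subunit of potassium channels in muscle and vessels, fell with 2,3-benzofuran, 1,5-naphthalenediamine and 1,4-dichlorobenzene at 500 mg/kg, and also with methylene chloride at 3000 ppm and naphthalene at 3 ppm. Abcb11, the canalicular bile salt pump, was called once, lower by −0.88 ± 0.26 with methylene chloride at 3000 ppm. Of 13 partners and regulators, the organic anion importer Slco1a1 fell with malathion (−5.53 ± 0.68), 1,5-naphthalenediamine (−5.85 ± 1.02) and 1,4-dichlorobenzene from 300 mg/kg on (−4.35 ± 0.53 at 500 mg/kg), groups in which Abcc4 rose. Slco1a1 was not called with 2,3-benzofuran, coumarin, 4-nitroanthranilic acid, pentachloronitrobenzene or trichloropropane, where Abcc4 was called higher too. With malathion the bile acid importer Slc10a1 (−0.91 ± 0.23) and the bile acid receptor Nr1h4 (−0.78 ± 0.19) fell as well.

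Markers of other cells and tissues moved in some of these groups, and their part in the results was not tested. With malathion 1 of 6 endothelial markers, Stab2, fell, and of 6 pancreatic markers Cela1 fell and Pnliprp1 rose. The summed pancreatic markers were 1443 to 2062 there against 4070 to 4736 in controls, and the summed endothelial markers 6068 to 8134 against 7681 to 9862. With 2,3-benzofuran and 1,5-naphthalenediamine Cela1 and the leukocyte gene Ptprc fell, and the summed lymphocyte markers were 541 to 713 against 927 to 1208 and 557 to 660 against 929 to 1122. Stab2 fell with 1,5-naphthalenediamine too (−0.90 ± 0.19). The summed endothelial markers were 5231 to 6436 against 6946 to 8696 with 2,3-benzofuran and 5076 to 6453 against 7467 to 9053 with 1,5-naphthalenediamine, and the bile duct sums 167 to 273 against 464 to 611 and 269 to 466 against 478 to 703. In all, the sums of 7 of 8 marker lists with 2,3-benzofuran, hepatocytes included, and of 5 of 8 with 1,5-naphthalenediamine lay wholly below their controls. So did the sums of 2 of 8 lists with pentachloronitrobenzene, methylene chloride at 4000 ppm and trichloropropane at 40 mg/kg. With 1,4-dichlorobenzene at 500 and at 600 mg/kg it was 1 of 8. With 4-nitroanthranilic acid 1 of 6 pancreatic markers, Cela2a, rose, and their sum was 1392 to 10996 against 4070 to 4736, while the summed Kupffer cell and macrophage markers were 4620 to 6896 against 7222 to 11453. With pentachloronitrobenzene the bile duct sum was 399 to 460 against 478 to 703. With 1,4-dichlorobenzene Cela1 fell at 500 and 600 mg/kg and Pnliprp1 rose at 600 mg/kg, and 1 of 5 bile duct markers fell at 300 mg/kg. Hepatocyte sums overlapped their controls with malathion (204028 to 345259 against 225300 to 360334).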

How the data were processed

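Liver RNA of 242 mice was labelled with biotin and hybridised to Affymetrix Mouse430_2 arrays, 1 array per mouse. The deposited values are linear signal intensities per probe set, made by the authors with GCOS 1.0 per the submitters' processing notes. The 2% trimmed mean was 500 on 240 arrays, and the other 2 were brought to it (vanadium pentoxide replicate 4 and 1,5-naphthalenediamine replicate 2). Of 45101 probe sets, 34945 had 1 gene symbol, 10092 none or several, and 64 were controls. Each of 18193 genes was read from its probe set of highest mean signal.

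Signals were taken as log2(signal + 17.3), 17.3 being their 20th percentile. Each run was fitted in limma 3.58.1 (R 4.3.3) with 1 mean per group, the 2 codes of run A as a block, lmFit, contrasts and eBayes. Trends were linear over dose ranks. Tests were two-sided and adjusted by Benjamini-Hochberg, and called at an adjusted p under 0.05 with a fold of at least 1.5. The array number limits precision. Controls were matched by vehicle, route and run, and by animal number where a run had several sets.

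All members were described. Up to 4 called genes of lowest adjusted p per list and comparison were eligible for naming, and for 3 members the 5 most alike genes among 3875 called somewhere. The members and lists were chosen with earlier results of these data known. Alternatives were the deposited scale, quantile normalisation, pseudocounts of 4.33 and 69.3, dim genes left out, the second probe set, pooled controls, the 2 groups alone, no block, a Gapdh ratio covariate, other dose scales and each array left out. The Gapdh covariate in runs C and D was added after seeing the data. The fit was tested on simulated data.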

Additional observations from a re-analysis of the deposited data

Results flagged for a closer look

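Single arrays stood apart in 2 groups for Abcc4. With coumarin, replicate 3 had a log2 level of 9.59 (signal 756), the highest of 4, with the others at 8.74 to 8.86 (409 to 448). With 1,4-dichlorobenzene at 600 mg/kg, replicate 3 had 11.34 (signal 2570), with the others at 10.68 to 10.76 (1620 to 1720). The gap of that array to its neighbour took up most of the range of its group. Of 43 sets of a gene and a group examined this way, 2 stood out, and chance gives about 1 in 20.

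The 2 naphthyl amines, compared directly in 1 limma contrast at 2000 ppm, differed in 3 members. Abcc4 was higher with 1,5-naphthalenediamine by 1.925 (3 of 3 arrays above all of the other group), Abcg2 was higher by 1.138, and Abcc6 differed by −0.595. RNA integrity and the Gapdh ratio moved with this comparison, and with that ratio in the model none of the 3 was called (adjusted p = 0.184, 0.0599 and 0.468).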

How the results depend on the processing

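No called member result reversed under any alternative. Of 46 called member results, 46 stayed called with dim genes left out, 45 with the lower pseudocount, 45 with the second probe set, 44 with the higher pseudocount, 41 after quantile normalisation and 30 on the deposited scale. Only Abcb1a, Abcc1 and Abcc5 have a second probe set, and the other members kept their own. Of the called results only Abcc5 with naphthalene at 0.5 ppm was therefore read anew, and that call was lost. Leaving out dim genes removed Abcc1 alone of the members, which had no call. Of 36 calls in treated groups, 30 stayed with pooled controls and 11 when only the 2 groups compared were fitted. In that last fit the 23 highest-dose calls became 8 and the 36 became 11. It left 2 with 2,3-benzofuran, 1 at each of the 4 upper doses of 1,4-dichlorobenzene, and 0 with coumarin, 4-nitroanthranilic acid, 1,5-naphthalenediamine, pentachloronitrobenzene, methylene chloride at 4000 ppm, naphthalene at 0.5 and 3 ppm and trichloropropane at 6, 40 and 60 mg/kg. Such fits have few residual degrees of freedom. Calls were also gained: Abcc4 and Abcc2 at 100 mg/kg of 1,4-dichlorobenzene with pooled controls, Abcc4 at 20 mg/kg of trichloropropane under 3 settings and with N-(1-naphthyl)ethylenediamine dihydrochloride with dim genes left out, and Abcb4 and Abcg2 with vanadium pentoxide on the deposited scale.

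On the deposited scale the members called were 1 with 2,3-benzofuran, 1 with methylene chloride at 4000 ppm, 1 with trichloropropane at 60 mg/kg, and 0 with pentachloronitrobenzene, naphthalene at 0.5 ppm and between the naphthyl amines. That scale leaves 1 array of run C far below the others. Quantile normalisation gave 2 with 4-nitroanthranilic acid, 1 with pentachloronitrobenzene and 0 with naphthalene at 0.5 ppm. The lower pseudocount gave 1 with pentachloronitrobenzene and the higher 1 with methylene chloride. With dim genes left out there were 2 with 4-nitroanthranilic acid and 2 with naphthalene at 3 ppm, and with the second probe set 1 and 2 with naphthalene at 0.5 and 3 ppm. Pooled controls gave 1 with naphthalene at 0.5 ppm and 0, 1 and 0 with trichloropropane at 6, 40 and 60 mg/kg. With the Gapdh ratio in the model there were 0 between the naphthyl amines, 1 with pentachloronitrobenzene and 1 with trichloropropane at 60 mg/kg. Apart from the fits noted above, the cause was not tested.

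With each array left out in turn, member calls ranged from 1 to 2 with coumarin, 0 to 1 with 4-nitroanthranilic acid, 0 to 0 with pentachloronitrobenzene, 0 to 3 with methylene chloride at 4000 ppm, 0 to 2 and 1 to 2 with naphthalene at 0.5 and 3 ppm, and 0 to 1, 1 to 2 and 0 to 2 with trichloropropane at 6, 40 and 60 mg/kg. The Abcc4 calls with coumarin, malathion, 2,3-benzofuran, 1,5-naphthalenediamine and 1,4-dichlorobenzene were lost in none of these fits. No paired analysis was possible because the labels give animal numbers and no replicate numbers shared between groups. Signals near the background limit what can be said of Abcc1. Control signals of Abcc4 (24 to 411) and Abcb1a (39 to 560) were low as well.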
